A study of Mus musculus with 12 samples.

Results

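The CC chemokines described here are Ccl2, Ccl3, Ccl4, Ccl5, Ccl7, Ccl8, Ccl9 and Ccl20, chosen by name as the CC chemokine ligands of interest. They were chosen with earlier results of these data known, so counts of called members describe these genes only. All 8 were found on the arrays, each with 1 probe, and 7 of the 8 passed the detection filter among 13840 genes that did. The RNA came from 3T3-L1 cells, a mouse pre-adipocyte line. The cells were either co-cultured with RAW264.7 cells, a mouse macrophage line held above them on a porous insert, or grown alone. Both cultures of an array had the same treatment, which was 100 µM serotonin (S), 100 µM cortisol (C), both hormones together at those doses (CS) or neither (NT), for 6, 24 or 48 h. Each of the 12 two-colour arrays set co-cultured cells (Cy5) against cells grown alone (Cy3). There was 1 array for each treatment and time, so a ratio on a single array has no replicate check. No dye swap was made, so in every ratio co-culture cannot be told apart from dye. In the fits the 4 treatments of a time and the 3 times of a treatment stand in for replicates, and p-values measure the spread between these arrays only. The arrays of a time shared a slide and each treatment kept its position on the slide, so time cannot be told apart from slide, nor treatment from position.

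CC chemokines are small secreted proteins that draw leukocytes along a gradient by binding G protein-coupled receptors. Ccl2, Ccl7 and Ccl8 are monocyte chemoattractants. Ccl3, Ccl4 and Ccl9 belong to the macrophage inflammatory proteins, and Ccl5 attracts T cells and monocytes. Ccl20 is the ligand of Ccr6. Many of these genes are switched on by NF-kB after a cytokine or microbial signal, and glucocorticoids such as cortisol are known to dampen that response. In adipose tissue they are known for recruiting macrophages.

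By gene order in RefSeq (GRCm38.p6), 7 of the 8 genes lie in a pair of clusters on chromosome 11. Ccl2, Ccl7 and Ccl8 lie in a run with Ccl11, Ccl12 and Ccl1, and Ccl5, Ccl9, Ccl3 and Ccl4 in a run with Ccl6. Ccl20 is on chromosome 1. A promoter sequence was at hand for 4 of the 8 members. Those of Ccl3, Ccl8 and Ccl9 are shown because at 48 h the co-culture ratio was above 0 for Ccl3 and below 0 for Ccl8 and Ccl9. Each is the 250 bases before the gene start (RefSeq, GRCm38.p6), on the gene's own strand, with matches to the motifs searched in capitals.
Ccl3, chr11:83649379-83649628, minus strand: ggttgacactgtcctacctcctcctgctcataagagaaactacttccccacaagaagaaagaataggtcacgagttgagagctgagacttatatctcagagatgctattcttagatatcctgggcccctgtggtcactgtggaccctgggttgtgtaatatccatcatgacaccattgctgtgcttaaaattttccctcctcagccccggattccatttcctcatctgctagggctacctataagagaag
Ccl8, chr11:82114935-82115184, plus strand: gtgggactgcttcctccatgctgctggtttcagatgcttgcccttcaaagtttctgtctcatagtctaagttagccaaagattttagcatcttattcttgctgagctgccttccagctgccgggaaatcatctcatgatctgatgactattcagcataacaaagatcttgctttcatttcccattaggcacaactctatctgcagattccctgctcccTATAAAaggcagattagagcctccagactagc
Ccl9, chr11:83578637-83578886, minus strand: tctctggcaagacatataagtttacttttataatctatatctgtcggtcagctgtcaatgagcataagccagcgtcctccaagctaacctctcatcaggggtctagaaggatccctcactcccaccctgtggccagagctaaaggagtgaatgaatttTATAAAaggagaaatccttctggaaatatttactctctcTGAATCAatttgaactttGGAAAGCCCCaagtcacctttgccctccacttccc
The motifs were NF-kB (GGGNNNNNCC), AP-1 (TGANTCA), a glucocorticoid response element (GNACANNNTGTNC) and an interferon-stimulated response element (GAAANNGAAA), each on both strands, and a TATA box (TATAAA) on the gene's strand. The Ccl9 window held an NF-kB match on the opposite strand 35 bases before the start, an AP-1 match 53 bases before and a TATA box 92 bases before. The Ccl8 window held a TATA box 32 bases before the start, and no motif matched in the Ccl3 window. The Ccl20 window, not shown, held 4 overlapping NF-kB matches. Windows of the same length held an NF-kB match in 45.8% of 32851 promoters, AP-1 in 6.75%, the TATA box in 7.59%, the interferon-stimulated element in 2.98% and the glucocorticoid element in 0.387%. The last 2 motifs matched in 0 of the 4 member windows, which says only that these letters are not in them.

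Facts of the arrays bear on several of the values below. The signal of Ccl2, whose probe had 10 spots an array, sat at the scanner's ceiling in co-cultured cells on 8 arrays, all those of 6 and 24 h. The co-culture signal of Ccl7 came within 3% of the ceiling on 3 arrays (S and NT at 6 h, NT at 24 h) without reaching it. All 20 pre-adipocyte and fibroblast markers passed the filter, against 15 of 21 macrophage markers. Of the macrophage-defining genes, Adgre1 was above background in co-cultured cells on 3 arrays and Lyz2 on 8, whereas Ptprc and Spi1 were above on 1 array each and Csf1r on all 12. In cells alone, Adgre1, Ptprc and Spi1 were above background on 1 array each, Lyz2 on 7 and Csf1r on all 12. Of the macrophage markers, 8 were above background on all 12 arrays in both cultures, so their signal was also present without macrophages. Of 22 glucocorticoid-induced genes, 10 rose with cortisol in co-cultured cells, where 2.61% of all genes were called in either direction, and 1 in cells alone, where 0.983% were. Zbtb16, a transcription factor gene among them, went against the hormone label in the cells alone on 3 arrays. Its log2 level there was 10.66 in the cells labelled S at 6 h and 10.53 in those labelled S at 24 h, against 8.48 and 8.71 in NT cells of those times. In the cells labelled CS at 24 h it was 9.18, where those labelled C had 11.34. In co-cultured cells Zbtb16 followed the labels on all 12 arrays. Summed over the 22 genes, the log2 level in cells alone at 6 h was lowest in S, unlike Zbtb16. It was 18.53 in S, 19.59 in C, 19.17 in CS and 19.33 in NT. At 24 h the summed level was 19.68, 19.84, 19.22 and 19.48 in the same order. Values of the members that rest on the 3 arrays where Zbtb16 went against the label are given with and without them below. The counts over gene lists use all 12 arrays, and the labels are kept as deposited.

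The co-culture ratios of the CC chemokines went in opposite directions, and the set that was called changed with time. A gene was called when its Benjamini-Hochberg adjusted p in limma, over all genes tested, was under 0.05 and its ratio was at least 1.5-fold. At 6 h, Ccl3, Ccl4 and Ccl5 rose in co-cultured cells, 3 of 7 members, where 9.67% of all genes were called in either direction. At 24 h only Ccl3 was called, 1 of 7 members against 8.39% of all genes. At 48 h Ccl3 and Ccl4 rose while Ccl7, Ccl8 and Ccl9 fell, 5 of 7 members against 31.4% of all genes. Ccl2, counted among the 7, had only a lower bound in co-cultured cells at 6 and 24 h, so its ratio could not be called there. The median log2 ratio of the other 6 members was 0.44, 0.08 and -0.10 at 6, 24 and 48 h (0.17 at 48 h with Ccl2), and that of all genes was -0.02, 0.00 and -0.01. Between 6 and 24 h the ratio of 0 of 7 members changed, against 2.38% of all genes (3680 genes had an unadjusted p under 0.05 in limma).

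**Figure D1:**
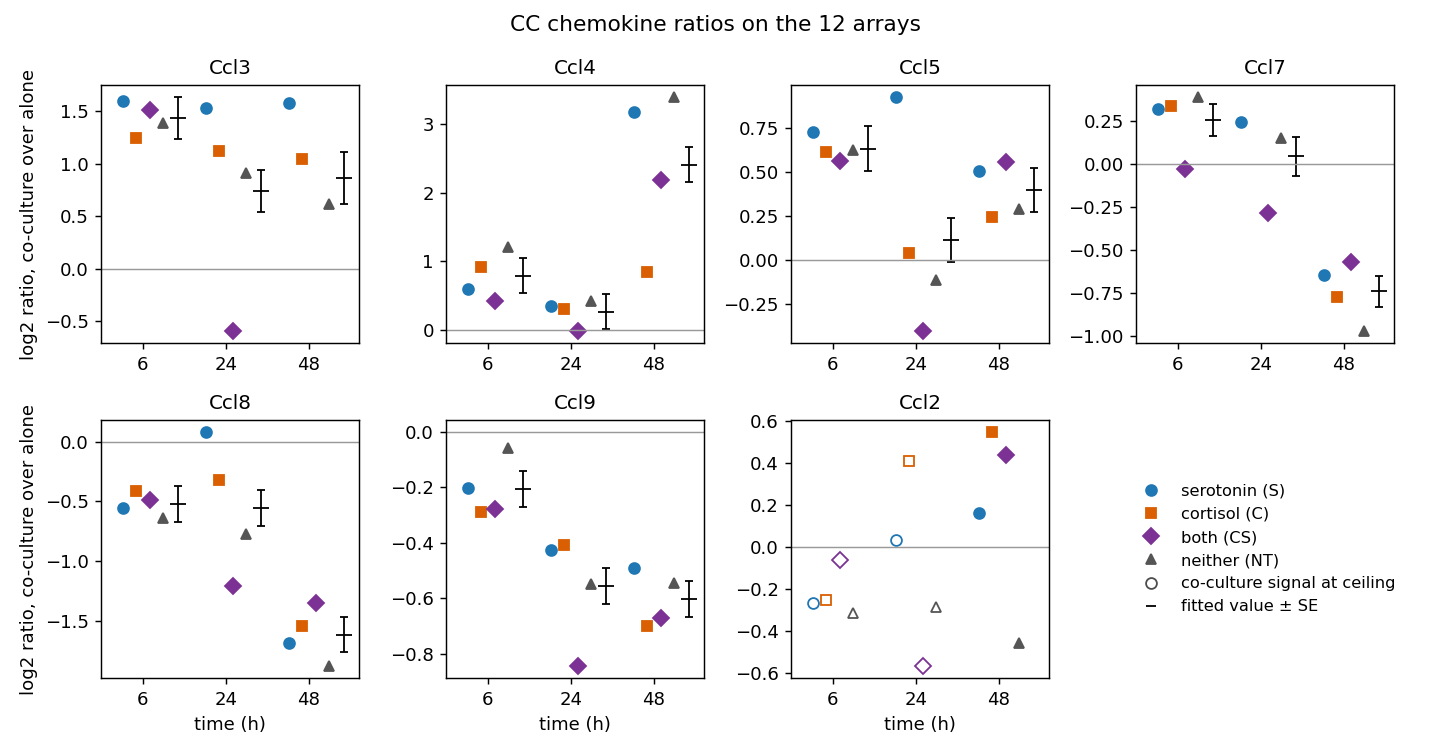
Log2 ratio of co-cultured cells over cells alone for the 7 detected CC chemokines (y axis) by time in hours (x axis), 1 point an array, with symbols for the treatment and, for 6 members, the fitted value with its SE at the right of each time. Ccl3 stood above 0 on 10 of its 11 arrays, Ccl4 was highest at 48 h, Ccl7 and Ccl8 were lowest there, and open symbols mark arrays on which Ccl2 was at the scanner ceiling.

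Ccl3, a macrophage inflammatory protein, was higher in co-cultured cells at every time. At 6 h its log2 ratio was 1.59 in S, 1.25 in C, 1.51 in CS and 1.39 in NT. At 24 h it was 1.53 in S, 1.12 in C, -0.60 in CS and 0.91 in NT. At 48 h it was 1.57 in S, 1.04 in C and 0.61 in NT, and its spot on the CS array was an outlier and left out. All arrays but CS at 24 h were thus above 0. The fitted ratios were 2.70-fold at 6 h (log2 1.43 ± 0.20, SE, adjusted p = 0.000298), 1.67-fold at 24 h (0.74 ± 0.20, adjusted p = 0.0124) and 1.82-fold at 48 h (0.87 ± 0.25, adjusted p = 0.00943). Without the 3 arrays of doubted label the log2 ratio at 24 h was 1.25 ± 0.15 (adjusted p = 0.00465). The call at 24 h was lost when the NT, S or C array of that time was left out (log2 0.63, 0.62 and 0.61), and the call at 48 h was lost without S at 48 h (0.75, adjusted p = 0.0727) or C at 48 h (0.83, adjusted p = 0.0569) and without loess normalization (0.54, adjusted p = 0.0551).

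The single channels of Ccl3 differed widely between the arrays of a time in both cultures. In co-cultured cells the log2 level was 9.93 in S, 8.73 in C, 11.61 in CS and 11.10 in NT at 6 h, and 10.37, 9.08, 11.47 and 11.34 in the same order at 24 h. At 48 h it was 12.04 in S, 9.18 in C and 11.83 in NT. In cells alone the levels were 8.34 in S, 7.48 in C, 10.10 in CS and 9.71 in NT at 6 h, 8.84, 7.96, 12.07 and 10.43 at 24 h, and 10.47 in S, 8.13 in C and 11.21 in NT at 48 h. The C array was thus the lowest of its time in both cultures at all 3 times. Against NT, C was lower by log2 -2.43 ± 0.29 in co-cultured cells (adjusted p = 0.00789; 1.94% of all genes called) and -2.59 ± 0.34 in cells alone (adjusted p = 0.0356; 0.181% called). The second of these calls was lost when any of 9 arrays was left out (adjusted p up to 0.241). The CS cells were not low like the C cells. The departure of CS from the sum of the single hormones was 3.50 ± 0.45 in co-cultured cells (unadjusted p = 2.64e-05, adjusted p = 0.365) and 4.84 ± 0.52 in cells alone (unadjusted p = 6.38e-06, adjusted p = 0.0883), and neither passed the test. Without the 3 doubted arrays these departures were 2.58 (adjusted p = 0.45) and 3.30 (adjusted p = 0.56), and the C against NT differences in both cultures stayed called (-2.43 and -2.59). As each treatment had its own slide position, the part of position in these differences cannot be told apart. Between 6 and 48 h Ccl3 rose in cells alone (log2 1.60 ± 0.33, adjusted p = 0.00602; 13.7% of genes called) and in co-cultured cells (1.03 ± 0.28, adjusted p = 0.0116; 28.7% called). The change in co-cultured cells was 0.55 and no longer called without S at 48 h. Leaving out the 3 doubted arrays, the changes were smaller and called, 1.08 in cells alone (adjusted p = 0.0265) and 0.59 in co-cultured cells (adjusted p = 0.0246).

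**Figure D2:**
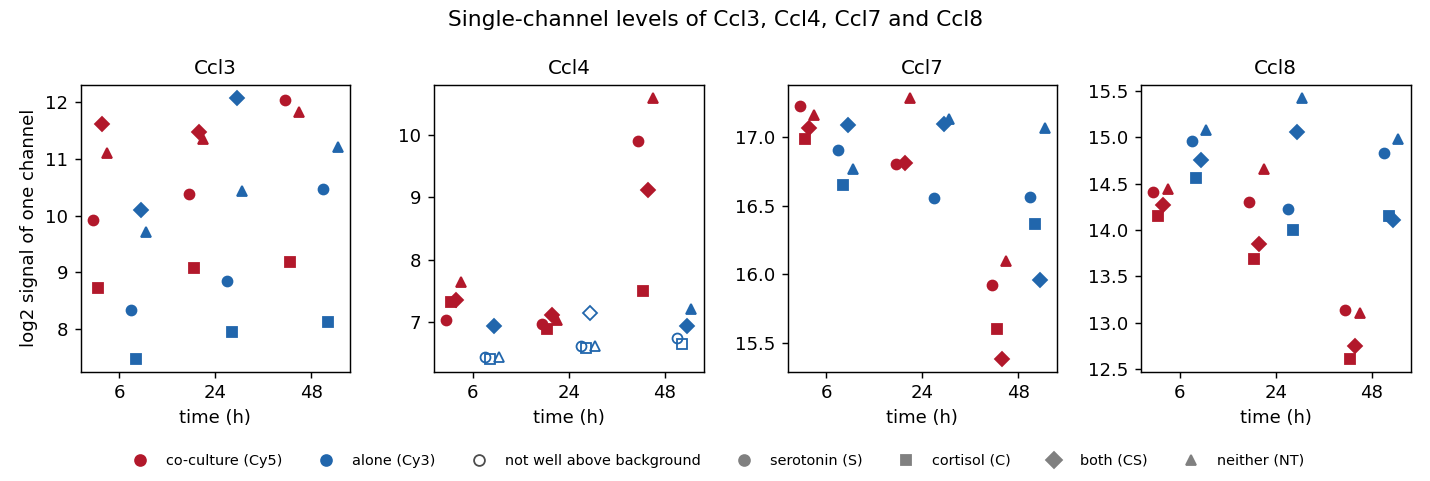
Single-channel log2 signal (y axis) of Ccl3, Ccl4, Ccl7 and Ccl8 by time in hours (x axis), with co-cultured cells in red to the left of cells alone in blue, 1 symbol an array by treatment, and open symbols where the signal was not well above background. Ccl4 was above background in cells alone on 3 of 12 arrays, and Ccl7 and Ccl8 of co-cultured cells were lowest at 48 h.

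Ccl4, a macrophage inflammatory protein like Ccl3, rose in co-cultured cells at 6 and 48 h. In co-cultured cells its log2 level at 48 h was 9.91 in S, 7.50 in C, 9.12 in CS and 10.60 in NT. At 6 h it was 7.04 in S, 7.33 in C, 7.36 in CS and 7.64 in NT, and at 24 h it lay between 6.89 and 7.12. In cells alone it was above background on only 3 arrays, and its log2 signal ranged over 6.41 to 7.20. The log2 ratio was 0.60 in S, 0.92 in C, 0.42 in CS and 1.21 in NT at 6 h, 0.35, 0.31, -0.02 and 0.42 at 24 h, and 3.18, 0.85, 2.19 and 3.40 at 48 h. At 48 h the S, CS and NT arrays lay above every array of the earlier times and the C array did not. The fitted ratio was 5.29-fold at 48 h (log2 2.40 ± 0.25, adjusted p = 5.71e-06) and 1.72-fold at 6 h (0.79 ± 0.25, adjusted p = 0.0229). These sizes rest on a dim signal of cells alone, above background on 2 of 4 arrays at 48 h and 1 of 4 at 6 h, and move with the background correction. At 24 h no array had the signal of cells alone above background, and the fitted ratio of 0.26 ± 0.25 did not pass (adjusted p = 0.411). The ratio at 48 h exceeded that at 6 h by log2 1.62 ± 0.36 (adjusted p = 0.00276; 24.2% of genes called) and that at 24 h by 2.14 ± 0.36 (adjusted p = 0.000512; 21.1% called). Feature Extraction's processed signals, taken as extracted with no further loess or offset, gave larger log2 ratios of 2.25, 1.53 and 3.95 at 6, 24 and 48 h, all called. Without the 3 doubted arrays the log2 ratio at 6 h was 1.11 (adjusted p = 0.0335), and the 48 h ratio exceeded those at 6 and 24 h by 1.30 and 1.88 (adjusted p = 0.034 and 0.0193). The call at 6 h was lost without the NT, C or CS array of that time (log2 0.84, 0.49 and 0.83, adjusted p = 0.0599, 0.198 and 0.0689). It was also lost when spots with a high local background were kept (0.63, adjusted p = 0.0863).

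Some macrophage markers moved with Ccl4 at 48 h. Ctss, a lysosomal protease gene abundant in macrophages, had log2 ratios of 2.41 in S, 0.25 in C, 1.06 in CS and 2.41 in NT at 48 h, and Fcer1g, an Fc receptor subunit gene, 1.23, 0.25, 0.69 and 1.12. Both had the C array lowest and the CS array next, as Ccl4 did. Csf1r, the receptor of the macrophage growth factor, had 1.32 in S, 0.83 in C, 1.14 in CS and 1.16 in NT. In cells alone, Ctss and Fcer1g were above background on 10 arrays each and Csf1r on all 12. Adgre1, which defines mature macrophages, was not well above background on any array of 48 h. Over the macrophage list, 8 of 15 measured genes rose in co-cultured cells at 6 h, 3 at 24 h and 7 at 48 h, with 1 lower at 48 h, where 9.67%, 8.39% and 31.4% of all genes were called in either direction. The summed log2 level of the list at 48 h was 14.03 to 14.64 in co-cultured cells and 13.23 to 13.89 in cells alone. In bulk RNA a change in how many cells of a type are present and a change in RNA per cell cannot be told apart, and the part of macrophage RNA in the Ccl4 rise was not tested.

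**Figure D3:**
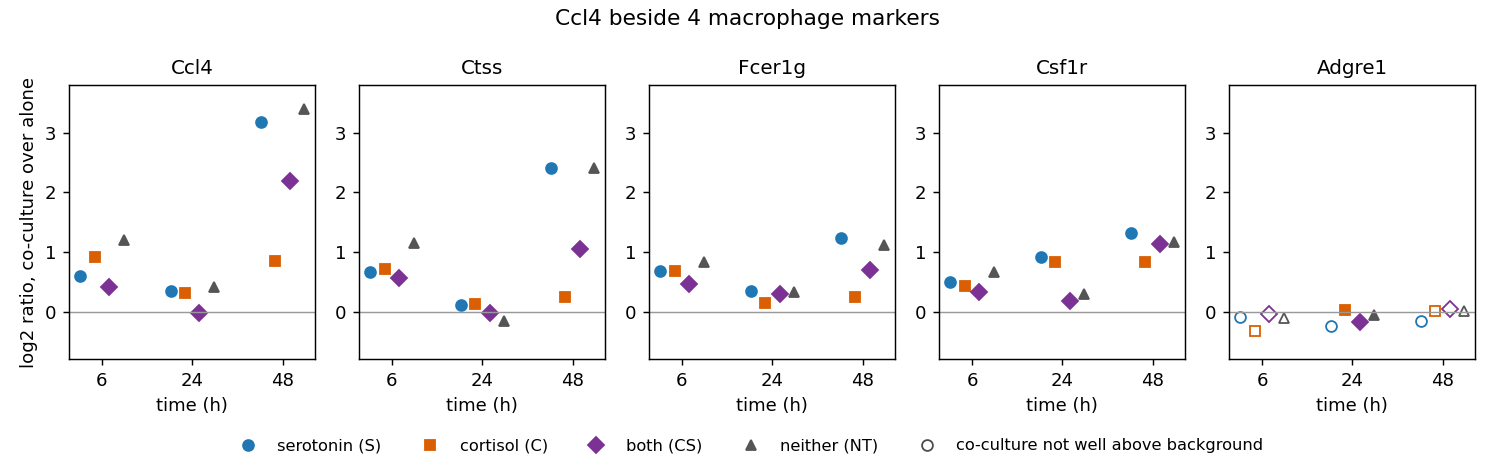
Log2 ratio of co-cultured cells over cells alone (y axis) for Ccl4 and the macrophage markers Ctss, Fcer1g, Csf1r and Adgre1 by time in hours (x axis), 1 symbol an array by treatment, open where the co-culture signal was not well above background. At 48 h Ccl4 and Ctss were both lowest on the C array (0.85 and 0.25), and Adgre1 stayed near 0.

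Ccl5, also called RANTES, was moderately higher in co-cultured cells at 6 h. Its log2 ratio there was 0.73 in S, 0.61 in C, 0.56 in CS and 0.62 in NT, so the 4 arrays lay close together. At 24 h it was 0.93 in S, 0.04 in C, -0.41 in CS and -0.11 in NT, and at 48 h 0.51, 0.24, 0.56 and 0.29. The fitted ratio was 1.55-fold at 6 h (log2 0.63 ± 0.13, adjusted p = 0.00172), close to the 1.5-fold limit, and fell below that limit without the NT array of 6 h (0.58). It was 0.11 ± 0.13 at 24 h (adjusted p = 0.484) and 0.40 ± 0.13 at 48 h (adjusted p = 0.0142, under 1.5-fold). Without the 3 doubted arrays it was 0.64 at 6 h (adjusted p = 0.00215) and 0.04 at 24 h (adjusted p = 0.824). Without loess normalization, with each array only centred on its median, the log2 ratio was 1.44 at 6 h and 1.00 at 24 h, both called.

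Ccl8 and Ccl7, monocyte chemoattractants of the first cluster, were lower in co-cultured cells at 48 h. The log2 ratio of Ccl8 at 48 h was -1.68 in S, -1.54 in C, -1.35 in CS and -1.88 in NT, below all arrays of the earlier times. At 6 h it was -0.56 in S, -0.41 in C, -0.49 in CS and -0.64 in NT, and at 24 h 0.08, -0.32, -1.21 and -0.77. The fitted ratio was 3.06-fold lower at 48 h (log2 -1.61 ± 0.15, adjusted p = 1.85e-06), and no alternative ended that call (log2 -1.80 to -1.44). At 6 h (-0.52 ± 0.15) and 24 h (-0.55 ± 0.15) Ccl8 was under 1.5-fold, and without loess the sign turned to 0.38 and 0.37. The ratio at 48 h was below that at 6 h by log2 -1.09 ± 0.21 (adjusted p = 0.0011) and below that at 24 h by -1.06 ± 0.21 (adjusted p = 0.00149). With the 3 doubted arrays left out, Ccl8 had -0.54 at 6 h and -0.50 at 24 h, still under 1.5-fold, and both changes to 48 h stayed called (-1.08 and -1.11).

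The fall of the Ccl8 ratio came with a lower level in the co-cultured cells. Their log2 level was 13.14 in S, 12.61 in C, 12.75 in CS and 13.10 in NT at 48 h, against 14.41, 14.15, 14.27 and 14.44 in the same order at 6 h, without overlap. The 48 h level was lower than the 6 h level by log2 -1.41 ± 0.11 (adjusted p = 3.55e-06; 28.7% of all genes called in either direction). In cells alone the level was 14.83 in S, 14.15 in C, 14.11 in CS and 14.98 in NT at 48 h, against 14.96, 14.56, 14.75 and 15.07 at 6 h. The groups of cells alone overlapped between these times, and over the alternatives the 48 h minus 6 h difference was -0.48 to -0.10 with no call.

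Ccl7 had a log2 ratio of -0.64 in S, -0.77 in C, -0.57 in CS and -0.97 in NT at 48 h. At 6 h it had 0.32 in S, 0.34 in C, -0.03 in CS and 0.39 in NT, and at 24 h 0.24 in S, -0.28 in CS and 0.15 in NT, the C spot having been left out as an outlier. The 48 h arrays lay below all others. The fitted ratio was 1.67-fold lower at 48 h (log2 -0.74 ± 0.09, adjusted p = 3.31e-05), and the differences from 6 h (-0.997 ± 0.129, adjusted p = 0.000113) and from 24 h (-0.79 ± 0.14, adjusted p = 0.0012) passed too, as they did without the 3 doubted arrays (-1.01 and -0.95). Without loess the 48 h ratio was -0.26 ± 0.12 (adjusted p = 0.0704) and no longer called, while the 6 h and 24 h ratios became 1.83 and 1.47 and were called higher. The direction of Ccl7 at the earlier times thus depends on the normalization, whereas its decline with time held under both (-2.09 at 48 h against 6 h without loess). The co-culture level was 15.92 in S, 15.60 in C, 15.38 in CS and 16.10 in NT at 48 h, against 17.23, 16.99, 17.07 and 17.17 at 6 h, where S and NT were near the ceiling. The level fell by 1.36 on the log2 scale (SE 0.11, adjusted p = 8.73e-06).

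Ccl9, a macrophage inflammatory protein of the second cluster, was slightly lower in co-cultured cells. Its log2 ratio was -0.20 in S, -0.29 in C, -0.28 in CS and -0.06 in NT at 6 h, -0.43, -0.41, -0.85 and -0.55 at 24 h, and -0.49, -0.70, -0.67 and -0.55 at 48 h. All 12 arrays were thus below 0 after loess. The fitted ratio was 1.52-fold lower at 48 h (log2 -0.60 ± 0.06, adjusted p = 6.48e-06) and 1.47-fold lower at 24 h (-0.56 ± 0.06, adjusted p = 7.22e-05), on either side of the 1.5-fold limit. The 48 h call was lost without the C array of that time (-0.56) and under 4 other scalings or offsets (-0.58 to -0.54), all with an adjusted p under the limit. Among those 4, the processed signals and the deposited log10 ratios gave the same value (-0.56) and are not separate checks. Without loess the log2 ratio was 0.23 at 6 h, with the sign turned, -0.04 at 24 h (adjusted p = 0.79) and -0.91 at 48 h, so the lower value at 24 h depends on the normalization. Without the 3 doubted arrays the 24 h ratio was -0.47 (adjusted p = 0.0232).

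Ccl2, the classical monocyte chemoattractant, was bright in both cultures. At 48 h, where its co-culture signal was below the ceiling, its log2 level in co-cultured cells was 17.56 in S, 17.60 in C, 17.52 in CS and 17.24 in NT. In cells alone it was 17.40 in S, 17.05 in C, 17.08 in CS and 17.70 in NT. The co-cultured cells were higher in S, C and CS (log2 ratio 0.16, 0.55 and 0.44) and lower in NT (-0.46), and the fitted ratio of 0.17 ± 0.13 did not pass (adjusted p = 0.249). Without loess it was 0.98 ± 0.16 and called, and with the processed signals -0.12 ± 0.13. At 6 and 24 h the co-culture signal is only a lower bound. After loess this bound lay below the level in cells alone in the mean of each time and above it on the S and C arrays of 24 h. A lower bound that lies below another level gives no direction. With median centring and no loess, the ratio on this limited signal passed the call limits as higher at both times. No fold is given for those times, nor any hormone comparison that averages over them.

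Ccl20 was not well above background on any of the 12 arrays in either culture. Its log2 signal was 6.02 to 6.38 in co-cultured cells and 6.06 to 6.56 in cells alone, which gives no ratio.

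Cortisol went with lower levels of Ccl5 in co-cultured cells. The cortisol comparison sets the C and CS arrays against the S and NT arrays within each culture. The log2 level of Ccl5 in co-cultured cells was 14.24 in C and 14.42 in CS at 6 h, against 14.66 in S and 14.83 in NT. At 24 h it was 13.84 in C and 13.94 in CS, against 14.63 in S and 14.80 in NT. At 48 h it was 13.93 in C and 14.02 in CS, against 14.95 in S and 14.56 in NT. The 6 arrays with cortisol (13.84 to 14.42) did not overlap the 6 without (14.56 to 14.95), a separation that was not counted over all genes. Averaged over times, Ccl5 was 1.60-fold lower with cortisol (log2 -0.68 ± 0.09, adjusted p = 0.00252), 1 of 7 members called where 2.61% of all genes were. Without the 3 arrays of doubted label it was lower by -0.81 ± 0.09 (adjusted p = 0.025), and no left-out array ended the call. By time the difference was -0.42 ± 0.14 at 6 h (adjusted p = 0.176), -0.83 ± 0.14 at 24 h (adjusted p = 0.0207; 2.16% of genes called) and -0.79 ± 0.14 at 48 h (adjusted p = 0.0232; 2.08% called). The test of 48 h against 6 h gave -0.37 ± 0.19 (adjusted p = 0.531), so a difference between times was not shown. Both single-time calls were lost without the 3 doubted arrays, with differences of -0.96 at 24 h and -0.79 at 48 h. The doubt over the labels concerned the cells alone, and in co-cultured cells Zbtb16 followed the labels. The 24 h call was also lost without any 1 array of 24 h, and the 48 h call without S, C or CS of 48 h. With the 3 doubted arrays left out, 24 h keeps only 1 C and 1 NT array. Of the 15 macrophage markers measured in co-cultured cells, 0 rose and 1 fell with cortisol, Csf1r (-0.62 ± 0.09, adjusted p = 0.00292), and the part of macrophage RNA in the Ccl5 difference was not tested.

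**Figure D4:**
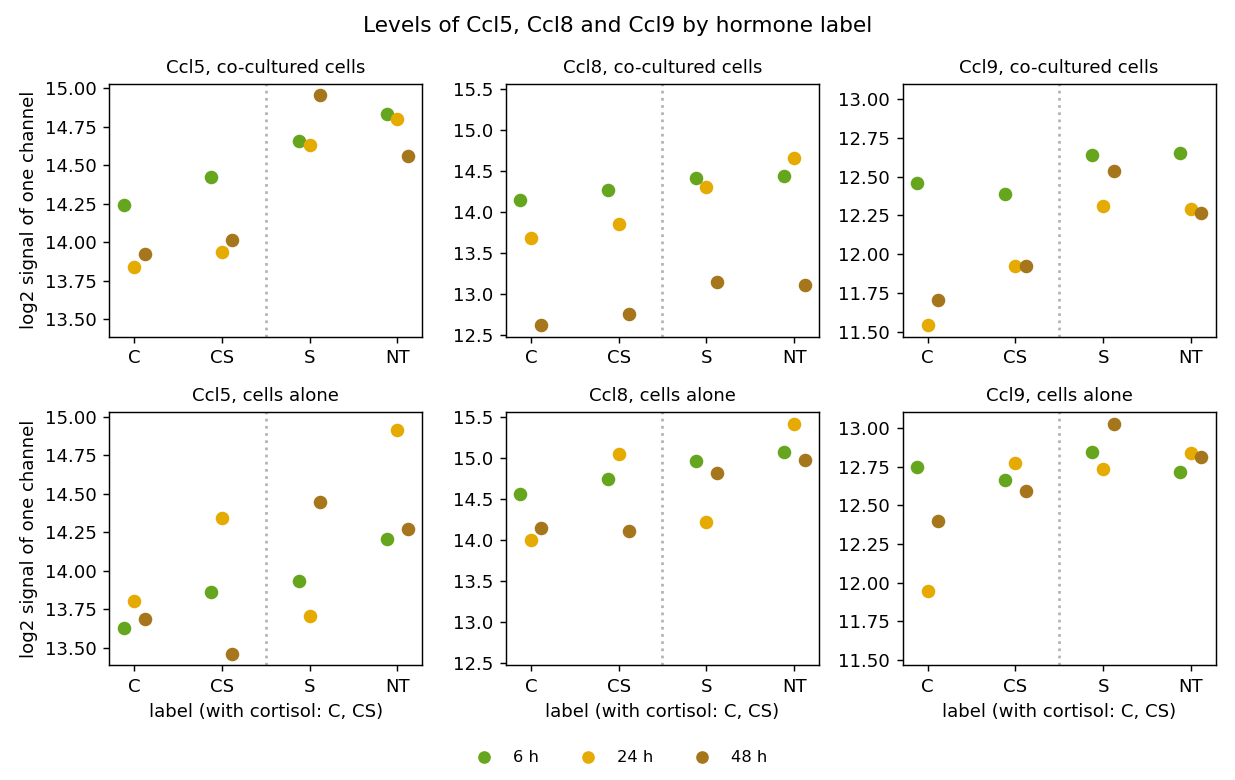
Single-channel log2 signal (y axis) of Ccl5, Ccl8 and Ccl9 by hormone label (x axis), cortisol-containing arrays left of the dotted line, co-cultured cells above cells alone, 1 point an array coloured by time. In co-cultured cells the 6 cortisol arrays of Ccl5 (13.84 to 14.42) lay below the 6 others (14.56 to 14.95), and in cells alone they overlapped.

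Ccl8 and Ccl9 of co-cultured cells were also lower with cortisol, by less than 1.5-fold. Within every time the C and CS arrays of both genes lay below the S and NT arrays. How many of all genes were ordered this way was not counted. In the comparison averaged over times, 3632 of 13839 genes had an unadjusted p under 0.05 in limma. Ccl8 had 13.68 in C and 13.85 in CS at 24 h, against 14.30 in S and 14.65 in NT, and Ccl9 had 11.70 in C and 11.92 in CS at 48 h, against 12.54 in S and 12.26 in NT. The differences over all times were -0.46 ± 0.09 for Ccl8 (adjusted p = 0.0103) and -0.46 ± 0.09 for Ccl9 (adjusted p = 0.0107), and without the doubted arrays -0.47 (adjusted p = 0.144) and -0.58 (adjusted p = 0.0772). At 24 h alone Ccl8 was called (-0.71 ± 0.13, adjusted p = 0.0281), a call lost without NT, C or CS of 24 h (-0.49, -0.62 and -0.80). Without the 3 doubted arrays, 1 C array stood against 1 NT array at 24 h, with a difference of -0.97. For Ccl3 the difference over all times was -0.68 ± 0.22 (adjusted p = 0.0906), and -1.14 ± 0.15 (adjusted p = 0.0415) without the doubted arrays. The low arrays were those of C, and CS lay above both S and NT at 6 and 24 h. Ccl7 had -0.31 ± 0.09 (adjusted p = 0.0728) and Ccl4 -0.65 ± 0.34 (adjusted p = 0.268). At 48 h the Ccl4 difference was -1.95 ± 0.45 (unadjusted p = 0.00186, adjusted p = 0.0648), which did not pass, and at 6 and 24 h it was 0.00 ± 0.45.

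In cells alone 0 of 7 members were called for cortisol by limma, against 0.983% of all genes, and 2686 of all genes had an unadjusted p under 0.05. Ccl5 had 13.63 in C and 13.86 in CS at 6 h, against 13.93 in S and 14.21 in NT, then 13.80 and 14.34 at 24 h, against 13.71 and 14.91, and 13.68 and 13.46 at 48 h, against 14.45 and 14.27. At 24 h, where the S and CS labels are in doubt, S and C were the low arrays and CS and NT the high ones, as they also were for Ccl3 and Ccl8. The difference was -0.45 ± 0.17 for Ccl5 (adjusted p = 0.188), -0.48 ± 0.18 for Ccl8 (adjusted p = 0.172) and -0.31 ± 0.12 for Ccl9 (adjusted p = 0.189), and without the 3 doubted arrays -0.80, -0.75 and -0.44, none of which passed (adjusted p = 0.0554, 0.0977 and 0.258). Also without these arrays, Ccl8 was lower with cortisol in cells alone at 24 h by -1.42, where 1 C array stood against 1 NT array. At 48 h it was called lower (-0.77 ± 0.11, adjusted p = 0.0451), in a fit with fewer residual degrees of freedom than that of all arrays. Whether cortisol acted differently in the presence of macrophages is read from the ratio, and 0 of 7 members were called there, against 0.0217% of all genes. The difference for Ccl5 was -0.23 ± 0.15 (adjusted p = 0.798) and for Ccl8 0.02 ± 0.17 (adjusted p = 0.988). Over the alternatives, among them leaving out the 3 doubted arrays, these were -0.33 to -0.02 and -0.11 to 0.28, and no member was called. A ratio on an array of doubted label may set unlike hormones against each other, so the absence of calls does not answer the question. Ccl4 at 48 h had the widest gap, -1.77 ± 0.39 (unadjusted p = 0.00107, adjusted p = 0.347).

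Against NT, C alone was called lower for Ccl5 in co-cultured cells (-0.73 ± 0.13, adjusted p = 0.0239) and so was CS (-0.61 ± 0.13, adjusted p = 0.0275; 3.66% of genes called). Both calls were lost without the 3 doubted arrays (-0.73 and -0.54, adjusted p = 0.0517 and 0.132) and without NT of 6 h or NT of 24 h, among others. Serotonin gave 0 calls by limma over all genes in co-cultured cells, in cells alone and on the ratio, where 912, 717 and 811 of all genes had an unadjusted p under 0.05. The largest serotonin difference of a member, averaged over S against NT and CS against C, was that of Ccl3. As labelled, S lay below NT in cells alone at every time and in co-cultured cells at 6 and 24 h. CS lay above C at 6 and 24 h in both cultures. Averaged, Ccl3 was 2.15-fold higher in co-cultured cells (log2 SE 0.22, adjusted p = 0.692) and 2.27-fold higher in cells alone (log2 SE 0.26, adjusted p = 0.884), neither of which passed. With those 3 doubted arrays left out, these differences were log2 1.61 and 1.15 (adjusted p = 0.287 and 1), and they did not pass either.

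Other genes of the chemokine system differed between the cultures as well. Of 16 other CC ligands listed, 9 passed the filter. Ccl11 (eotaxin, which attracts eosinophils) was lower at 24 h (log2 -1.13 ± 0.12, adjusted p = 4.87e-05) and at 48 h (-1.16 ± 0.12, adjusted p = 5.8e-06). At 48 h Ccl28 (-0.64), Ccl6 (-0.60) and Ccl17 (-0.59) were lower too and Ccl25 was higher (0.88), so that 1 ligand rose and 4 fell of the 9, where 31.4% of all genes were called. At 24 h Ccl11 was the 1 ligand called (8.39% of all genes) and at 6 h limma called 0 (9.67%). Of 16 receptors 7 passed, and the same 2 of these rose at all 3 times. The shares of all genes called in either direction were 9.67%, 8.39% and 31.4%, so the receptor count at 48 h was no higher than that share. Ccr7, which guides lymphocytes and dendritic cells to lymph nodes, had log2 ratios of 1.02, 0.89 and 0.99 at 6, 24 and 48 h, and the scavenging receptor Ackr3 0.88, 0.93 and 0.67. Ccr7 fell with cortisol in co-cultured cells (-0.96 ± 0.18, adjusted p = 0.00891).

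Upstream of the chemokines, some NF-kB components rose in co-culture. Of 16 measured, 7 rose at 6 h (9.67% of all genes called in either direction), 4 at 24 h (8.39%) and 5 at 48 h (31.4%), and limma called 0 lower. The count at 48 h was near the share over all genes. Tnfaip3, the feedback inhibitor A20, had log2 ratios of 1.99, 1.71 and 2.87 and Nfkbia, the inhibitor of NF-kB alpha, 0.83, 0.75 and 1.20. The list's median was 0.45, 0.35 and 0.06. With cortisol 0 of the 16 were called in co-cultured cells. Of 13 upstream cytokines and receptors, 3 rose at 6 h and 1 at 24 h, and at 48 h 4 rose and 2 fell, against the same shares of all genes (9.67%, 8.39% and 31.4%), so that the 24 h count was no higher than that share. Il1a had log2 ratios of 1.95, 1.49 and 1.65, and Il6 rose at 6 h (1.63 ± 0.32, adjusted p = 0.00154). Il6 fell with cortisol in co-cultured cells (-0.92 ± 0.15, adjusted p = 0.00518). Tlr2 was higher at 6 h (0.77) and lower at 48 h (-0.78), and Tlr4 was lower at 48 h (-0.74).

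Likeness between genes was measured as Pearson's r of the log2 ratio over the arrays, which share their time and slide, and is given as a description. Ccl8 was most like Ccl17 (r = 0.986 over 12 arrays), then Jam2 and Phf11a. Ccl4 was most like Bcl2a1d (0.968), an anti-apoptotic gene, then Lyl1 and Hmga2-ps1. Ccl7, over 11 arrays, was most like Cep120 (0.971), then Vmn1r122 and Parp12. Ccl5 was most like Fgfrl1 (0.950), then Gabarap and the macrophage marker Mpeg1. Ccl3 was most like Gsdmc4 (0.951), then Car4 and Fam20c, and Ccl9 was most like Gpr137b-ps (0.936), then Csgalnact1 and Camta1. Among the members, the closest pair was Ccl7 and Ccl8 (0.912), both in the first cluster with Ccl11 and Ccl12 between them, then Ccl3 and Ccl5 (0.832). Ccl3 and Ccl4, which adjoin each other in the second cluster, had r = 0.142.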

How the data were processed

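RNA was hybridised to 12 two-colour Agilent mouse arrays (4 treatments at 3 times, 1 array each). Per the file headers, the authors extracted spots with Agilent Feature Extraction 10.7.3.1 (10.5.1.1 in the submitters' processing notes). Deposited median spot and local background signals are raw intensity values with flags, and the deposited value table holds log10 ratios, all of which lay within 0.01 of those of the scanner files.

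Intensities were corrected with normexp (offset 50) and normalized by loess within arrays, and by Aquantile for single channels (limma 3.58.1, R 4.3.3). Outlier spots were left out. Probes well above background on at least 3 arrays were kept, and the brightest stood for a gene. Time and treatment were additive factors (6 residual degrees of freedom, 5 for cortisol by time), with Benjamini-Hochberg adjustment over all genes. Arrays give no read depth, and their number limits precision. Promoters came from RefSeq tables. Scripts were tested on simulated data.

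Members and gene lists were chosen with earlier results of these data known. All members are named, with, from other lists, up to 6 called genes and the 3 most alike genes. The methods' 1.5-fold limit came without a test. Alternatives covered normalization, background, filters, weights, thresholds and left-out arrays. A mean spot signal column was not used here, so that alternative was not run.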

Additional observations from a re-analysis of the deposited data

Results flagged for a closer look

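The co-culture ratio of 3 of 7 members differed between times by a test of the difference itself. Of all genes, 24.2% were called for 48 h against 6 h and 21.1% for 48 h against 24 h. For Ccl4 the log2 ratio at 48 h exceeded that at 6 h by 1.62 ± 0.36 (SE, limma adjusted p = 0.00276) and that at 24 h by 2.14 ± 0.36 (adjusted p = 0.000512), and in 3 of 4 treatments the 48 h value lay above every value of the earlier times. For Ccl7 the difference was -0.997 ± 0.129 between 48 and 6 h (adjusted p = 0.000113) and -0.79 ± 0.14 between 48 and 24 h (adjusted p = 0.0012). For Ccl8 it was -1.09 ± 0.21 between 48 and 6 h (adjusted p = 0.0011) and -1.06 ± 0.21 between 48 and 24 h (adjusted p = 0.00149), lower at 48 h in 4 of 4 treatments. Each time was a slide of its own, so time and slide cannot be told apart.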

How the results depend on the processing

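None of the members' called values changed sign under any alternative, and over single calls 712 values kept their call and 89 lost it. Counts of called members moved by more than 1.5 times in these cases, and the share of all genes called under each alternative was not computed. At a 2-fold limit, 1 member was called at 6 h (3 in the report), 0 at 24 h (1), 2 at 48 h (5), 0 for cortisol in co-cultured cells (1), 0 for cortisol by time (3) and 2 for single hormones (4). With no fold limit, 6 were called at 6 h, 3 at 24 h, 3 for cortisol in co-cultured cells and 1 for 24 h against 6 h (0). With median centring and no loess, 5 were called at 6 h, 4 at 24 h, 6 for 48 h against 6 h and 6 for 48 h against 24 h (3 each). These counts include Ccl2, at the ceiling at 6 and 24 h, in all but the comparison of 48 h against 6 h. Processed signals and the deposited log10 ratios, which are not separate checks, each gave 2 at 24 h. Array weights gave 2 for cortisol in co-cultured cells and 7 for single hormones, leaving out the 3 arrays of doubted label gave 2 and 2, and scaling to the 75th percentile gave 2 for 48 h against 6 h in cells alone (1). Leaving out each array in turn gave 1 to 3 at 6 h, 0 to 2 at 24 h, 3 to 5 at 48 h, 0 to 1 for 24 h against 6 h, 3 to 3 for each change to 48 h, 3 to 4 for 48 h against 6 h in co-cultured cells, 1 to 1 in cells alone, 1 to 1 for cortisol in co-cultured cells, 1 to 4 for cortisol by time and 1 to 4 for single hormones. The cause of these moves was not tested, apart from the limits that count fewer or more genes by construction. Leaving out spots at the scanner ceiling, an alternative chosen after seeing the data, kept every count within 1.5 times. No paired analysis was possible because each condition had a single array and so no replicate numbers to match, beyond the pairing of both cultures on an array that every ratio already uses. Bright members such as Ccl2 and Ccl7 are limited by the scanner ceiling, and dim ones such as Ccl4 and Ccl20 by the background.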
